A study of Rattus norvegicus with 4 samples.

Results

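Transcripts of 10 genes of the insulin-like growth factor (IGF) system and the insulin receptor were followed in pancreatic islets of rat pups with intrauterine growth restriction (IUGR). They are the ligand genes Igf1 and Igf2, the receptor genes Igf1r, Igf2r and Insr, the adaptor genes Irs1 and Irs2, and the binding protein genes Igfbp2, Igfbp3 and Igfbp5. The members are all probes other than control probes that the scanner files name after 1 of these 10 genes, which gave 15 of 30367 probes and 10 of 19311 genes with a symbol. The 4 IUGR samples came from Sprague Dawley dams whose uterine arteries were ligated on both sides by surgery at embryonic day 18. The 4 control samples came from sham-operated dams, and all islets were taken at postnatal day 14. Every array held 1 IUGR sample against 1 control sample: IUGR replicate 2 with control replicate 1 on array 1, IUGR replicate 1 with control replicate 2 on array 2, IUGR replicate 4 with control replicate 3 on array 3, and IUGR replicate 3 with control replicate 4 on array 4. IUGR was in the red dye Cy5 on arrays 1 and 2 and in the green dye Cy3 on arrays 3 and 4. The labels do not say which sex the pups were, how many animals made up a sample or which litters they came from, so the spread below is that between these samples, whatever its source.

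IGF1 and IGF2 are small secreted proteins that drive growth before and after birth, and both act through the IGF1 receptor tyrosine kinase, a close relative of the insulin receptor. Ligand binding leads the receptor to phosphorylate the adaptors IRS1 and IRS2, which recruit phosphoinositide 3-kinase and so switch on the kinase AKT. The IGF2 receptor, also known as the cation-independent mannose 6-phosphate receptor, carries IGF2 to lysosomes for degradation and has no kinase. IGF binding proteins hold the ligands outside cells and can either prolong or block their action. In rodent islets IRS2 is known for its role in maintaining beta cell mass.

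The arrays read each gene through probes of 60 bases. A probe each of 5 genes is shown in full. The Igf1r and Insr probes shown stood for their genes in the test. Those of Igf1, Irs1 and Igfbp2 are the dimmer ones, so the tested ratios of these genes came from another stretch of transcript. Capitals mark a stop codon that closes an otherwise open reading frame of 19 codons, which was found at the end of the Irs1 and Igfbp2 probes shown. The coordinates are those of the scanner files, on rn4.

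Igf1 A_64_P052740, plus strand of chr7:24587916-24587975: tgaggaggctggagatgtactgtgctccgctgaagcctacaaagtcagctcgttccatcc
Igf1r A_44_P474037, plus strand of chr1:122989150-122989209: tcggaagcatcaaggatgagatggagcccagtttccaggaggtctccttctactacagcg
Insr A_64_P085396, plus strand of chr12:3086616-3086675: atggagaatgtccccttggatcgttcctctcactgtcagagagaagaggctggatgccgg
Irs1 A_64_P149129, minus strand of chr9:81633784-81633843: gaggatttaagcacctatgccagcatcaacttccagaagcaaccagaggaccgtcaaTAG
Igfbp2 A_64_P032415, plus strand of chr9:71993843-71993902: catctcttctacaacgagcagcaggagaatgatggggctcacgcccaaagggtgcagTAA

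The GC content of these 5 probes was between 48.3% and 55.0%. The brighter Igf1 probe, A_44_P366723, lies further along the gene at chr7:24604715-24604774, and the dimmer Insr probe, A_64_P118402, at chr12:3087540-3087599. The brighter Irs1 probe, A_44_P431109, lies at chr9:81585685-81585744 on the minus strand and the brighter Igfbp2 probe, A_64_P039026, at chr9:71994131-71994190. Igf2 was read by A_44_P1037953 at chr1:202906641-202906700 on the minus strand, Igf2r by A_44_P1003212 at chr1:42340766-42340825, Irs2 by A_44_P684795 at chr16:83403814-83403873 and Igfbp3 by A_64_P046754 at chr14:87959244-87959303 on the minus strand. Igfbp5 had the probes A_44_P264240 at chr9:72000312-72000371 and A_64_P047478 at chr9:72003659-72003718, both on the minus strand. The Igfbp2 and Igfbp5 genes are neighbours on chromosome 9, with their nearest probes 6121 bases apart and on opposite strands. Where a gene had 2 probes, the brighter one stood for it in the test.

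The arrays differed in brightness between their channels. The median signal was between 104 and 341 intensity units in the IUGR channels and between 106 and 811 in the control channels. The IUGR channel was the brighter one on array 1, at a log2 ratio of 1.69, and the dimmer one on arrays 2, 3 and 4, at ratios from -2.42 to -1.55. Between 61.8% and 74.0% of probes were well above background in the IUGR channels, against 67.3% to 77.2% in the control channels. After loess normalization the ratios of array 1 correlated across genes with those of array 4 at r = -0.30, while r was between 0.37 and 0.62 among arrays 2, 3 and 4. Genes are not independent replicates. Of the islet markers on the arrays, 9 of 9 beta cell, 6 of 6 alpha cell and 4 of 4 delta and PP cell markers were well above background in all 8 samples. So were 8 of 8 acinar, 10 of 10 fibroblast and stellate, 8 of 8 endothelial and 4 of 4 red blood cell markers. Of the other lists 7 of 8 macrophage, 5 of 6 duct and 3 of 6 T and B lymphocyte markers were. Among all genes tested 16216 of 20184 were, so detection alone says little about the islet label.

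By the probes that stood for the 10 genes, Igfbp2 was the 1 with a higher level in the IUGR sample on all 4 arrays, by 1.32-fold on average. The other Igfbp2 probe was below 0 on array 2 (-0.08), while the other Insr probe was above 0 on all 4 arrays. Igf2 averaged 1.22-fold. Igfbp3 averaged 0.715 times the control level, and Igfbp5 0.706 times by its brighter probe, while its other probe had the opposite sign. None of the 10 passed the test, which was limma's moderated test across 20184 genes or unnamed probes with Benjamini-Hochberg adjustment at 0.05. It called 0 genes in all (0%). The smallest adjusted p among the 10 was 0.342, for Igf2, Igfbp2, Igfbp3 and Igfbp5. Genes outside the 10 had this value too, such as Pik3r3 at an unadjusted p of 0.0844 in limma. Before adjustment 2778 genes (13.8%) had a p under 0.05, of which 1456 (7.21%) had a higher and 1322 (6.55%) a lower level in IUGR. Among the 10 genes, 2 were higher by that looser rule (Igf2 and, by its brighter probe, Igfbp2). By its brighter probe 1 was lower (Igfbp5, whose 2 probes averaged -0.10 in log2 ratio). With every probe tested on its own in limma, the other Igfbp2 probe had an unadjusted p of 0.159. The ratio was above 0 for 6 genes, against 52.9% of all genes, and below 0 for 4, with a median log2 ratio of 0.11, beside 0.01 over all genes tested. The same sign on all 4 arrays was met by 1 of the 10 genes and by 4174 of all genes (20.7%). In no gene (0 of 10) did the IUGR and control levels separate without overlap, which 635 of all genes (3.15%) did. In RNA from whole islets, fewer cells of a type and less RNA per cell cannot be told apart.

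**Figure D1:**
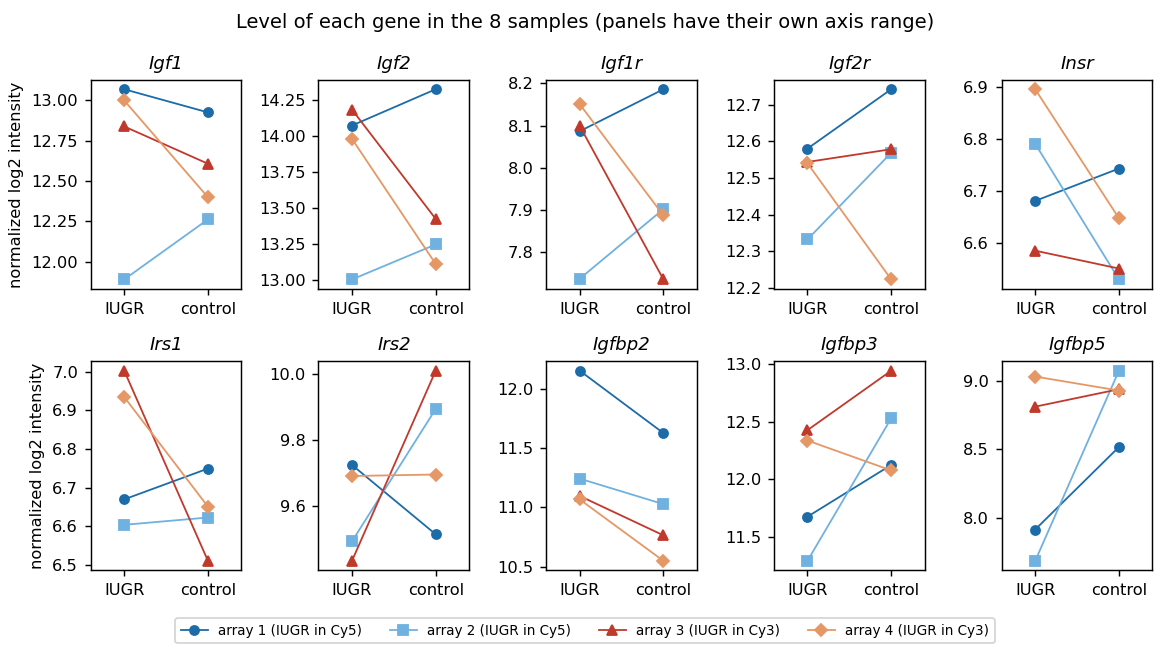
Normalized log2 intensity of the 10 genes in the 4 IUGR samples (left in each panel) and the 4 control samples (right), with a line joining the samples of 1 array. Panels have their own vertical range, and levels of different genes are not comparable. The lines of Igfbp2, by its brighter probe, all run down to the control side, and in every panel the IUGR and control ranges overlap.

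Igf1, the growth factor that mediates much of the action of growth hormone, had log2 levels of 13.07, 11.89, 12.84 and 12.998 in the IUGR samples of arrays 1 to 4, against 12.92, 12.26, 12.61 and 12.40 in the control samples. IUGR was above control on arrays 1, 3 and 4 and below it on array 2. The mean log2 ratio was 0.15 ± 0.13 (moderated SE from limma, given a dye term in the model, n = 4 arrays; adjusted p = 0.513), with a 95% interval from -0.18 to 0.48. The other Igf1 probe, shown above, gave ratios of 0.43, -0.12, 0.09 and 0.39, with a mean of 0.20 ± 0.13. Both probes thus had array 2 as the lowest and the only negative ratio. The brighter probe averaged 0.02 without array 1, 0.28 without array 2 and 0.06 without array 4. Igf1 averaged -0.20 with median centring in place of loess, the 1 setting in which its sign turned.

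Igf2, the fetal growth factor expressed from the paternal allele in most tissues, had log2 levels of 14.07, 13.001, 14.18 and 13.98 in IUGR, against 14.32, 13.24, 13.42 and 13.11 in control. The ratios were -0.25 and -0.24 where IUGR was in Cy5 and 0.76 and 0.87 where IUGR was in Cy3. Igf2 was thus brighter in Cy3 on every array, whichever sample carried that dye. With the dye difference taken out the mean log2 ratio was 0.28 ± 0.08 (adjusted p = 0.342; unadjusted p = 0.0149 from limma), while the SD of the 4 ratios was 0.62. Without the dye term the adjusted p was 0.526, and with median centring the mean was -0.08. Igf2 kept a fitted mean between 0.26 and 0.31 when any 1 array was left out.

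**Figure D2:**
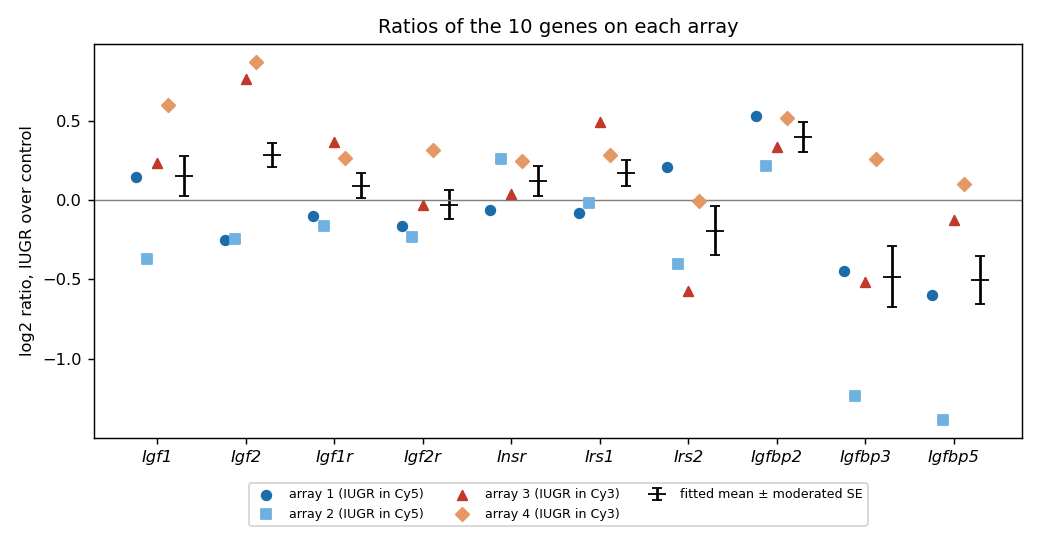
Log2 ratio of IUGR over control for the 10 genes on each array, as coloured points, beside the fitted mean and its moderated SE in black (n = 4 arrays). Blue points (IUGR in Cy5) lie below red and orange ones (IUGR in Cy3) for Igf1, Igf2, Igf1r, Igf2r, Irs1 and the brighter Igfbp5 probe. All 4 points of the brighter Igfbp2 probe lie above 0, between 0.22 and 0.53.

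None of the 3 receptor genes had a p under 0.05 even before adjustment. Igf1r, the receptor kinase that both growth factors use, had log2 levels of 8.09, 7.74, 8.10 and 8.15 in IUGR, against 8.19, 7.90, 7.74 and 7.89 in control, with IUGR lower on arrays 1 and 2 and higher on arrays 3 and 4. Its mean log2 ratio was 0.09 ± 0.08 (adjusted p = 0.518), with a 95% interval from -0.11 to 0.29. The Igf1r probe was printed 10 times per array, and the SD among these spots was between 0.06 and 0.10, below the SD of 0.26 over the 4 arrays.

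Igf2r, which clears IGF2 from the cell surface, had log2 levels of 12.58, 12.33, 12.54 and 12.54 in IUGR, against 12.74, 12.57, 12.58 and 12.22 in control. Array 4 alone had IUGR above control. The mean was -0.03 ± 0.09 (adjusted p = 0.874), the nearest to 0 among the 10 genes, and its 95% interval in levels ran from 0.827 to 1.16 times control. The sign of the fitted mean turned when array 3 was left out (0.06) and when channel brightness was a covariate (0.02). Without array 3 the ratios left were -0.16, -0.24 and 0.32, and array 4 alone stood for its dye orientation in the fit.

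Insr, which encodes the insulin receptor, had log2 levels of 6.68, 6.79, 6.59 and 6.90 in IUGR, against 6.74, 6.53, 6.55 and 6.65 in control. Its signal was low: the probe was well above background in 3 of 4 IUGR samples, array 2 being the exception, and in 4 of 4 control samples. The mean was 0.12 ± 0.10 (adjusted p = 0.50), with ratios of -0.06, 0.26, 0.03 and 0.25. The other Insr probe gave 0.09 ± 0.08, with 2 of 4 IUGR and 4 of 4 control samples well above background. Its ratios were 0.03, 0.11, 0.17 and 0.07. Both Insr probes averaged above 0. Leaving out array 1 gave a fitted Insr mean of 0.20, array 2 a mean of 0.04 and array 4 a mean of 0.07. When channel brightness was a covariate the fitted Insr mean was 0.05, and median centring in place of loess gave 0.57.

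Among the adaptors, Irs1 had log2 levels of 6.67, 6.60, 7.002 and 6.93 in IUGR, against 6.75, 6.62, 6.51 and 6.65 in control. Its ratios of -0.08, -0.02, 0.49 and 0.28 split by dye orientation, with a mean of 0.17 ± 0.08 (adjusted p = 0.348). This probe was also dim, well above background in 3 of 4 IUGR and 4 of 4 control samples, and was printed 10 times with a spot SD between 0.06 and 0.11. The other Irs1 probe, 48099 bases away, had -0.01, 0.09, 0.29 and 0.25, with a mean of 0.15 ± 0.08. The 2 Irs1 probes differed by less than their SE. With median centring Irs1 averaged 0.58.

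Irs2 was the receptor adaptor with a mean below 0. Its log2 levels were 9.73, 9.49, 9.43 and 9.69 in IUGR, against 9.51, 9.89, 10.01 and 9.70 in control. IUGR was below control on arrays 2 and 3, above it on array 1 and at the same level on array 4, where the ratio was -0.0046. The mean was -0.19 ± 0.15 (adjusted p = 0.494), with an interval from -0.59 to 0.21. Leaving out array 2 or array 3 brought the fitted Irs2 mean to -0.04 or -0.05, and channel brightness as a covariate to 0.02.

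Igfbp2, a binding protein abundant in fetal life, had log2 levels of 12.15, 11.24, 11.10 and 11.07 in IUGR, against 11.63, 11.03, 10.76 and 10.55 in control. The ratios of 0.53, 0.22, 0.33 and 0.52 all lay above 0 in both dye orientations, with an SD of 0.15. The mean was 0.40 ± 0.09 (unadjusted p = 0.00917, adjusted p = 0.342 from limma), with a 95% interval from 0.15 to 0.64. The other Igfbp2 probe, 288 bases away by its start, had 0.73, -0.08, 0.05 and 0.34 and a mean of 0.26 ± 0.16, so it was not above 0 on array 2. With median centring the Igfbp2 mean was 0.08, and the fitted mean stayed between 0.32 and 0.48 when any 1 array was left out.

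Igfbp3, the main IGF carrier of the blood, had log2 levels of 11.68, 11.30, 12.43 and 12.34 in IUGR, against 12.13, 12.53, 12.94 and 12.08 in control. IUGR was lower on arrays 1, 2 and 3 and higher on array 4. The ratios were -0.45, -1.23, -0.51 and 0.26, with a mean of -0.48 ± 0.19 (adjusted p = 0.342) and an SD of 0.61. Without array 2 the fitted mean was -0.29, and without array 3 it was also -0.29. Igfbp3 had a fitted mean of -0.21 when channel brightness was a covariate and -0.86 with median centring.

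Igfbp5, a binding protein made by many connective tissue cells, had log2 levels of 7.91, 7.69, 8.81 and 9.03 in IUGR, against 8.52, 9.07, 8.94 and 8.93 in control. The IUGR samples of arrays 1 and 2 were the lowest, and the other samples lay between 8.52 and 9.07. The ratios were -0.60 and -1.39 where IUGR was in Cy5 (mean -0.99) and -0.13 and 0.10 where it was in Cy3 (mean -0.01), with a mean of -0.50 ± 0.15 (unadjusted p = 0.0220, adjusted p = 0.342). The second Igfbp5 probe gave a different picture, with -0.73, 0.77, 0.95 and 0.20 and a mean of 0.30 ± 0.28. The 2 Igfbp5 probes lie 3347 bases apart and had opposite signs on arrays 2 and 3, so no direction is given for the gene. Their average was -0.10, and without array 2 the brighter probe had a fitted mean of -0.31. That probe averaged -0.73 with a normexp offset of 0 and -0.85 from Agilent's processed signals.

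**Figure D3:**
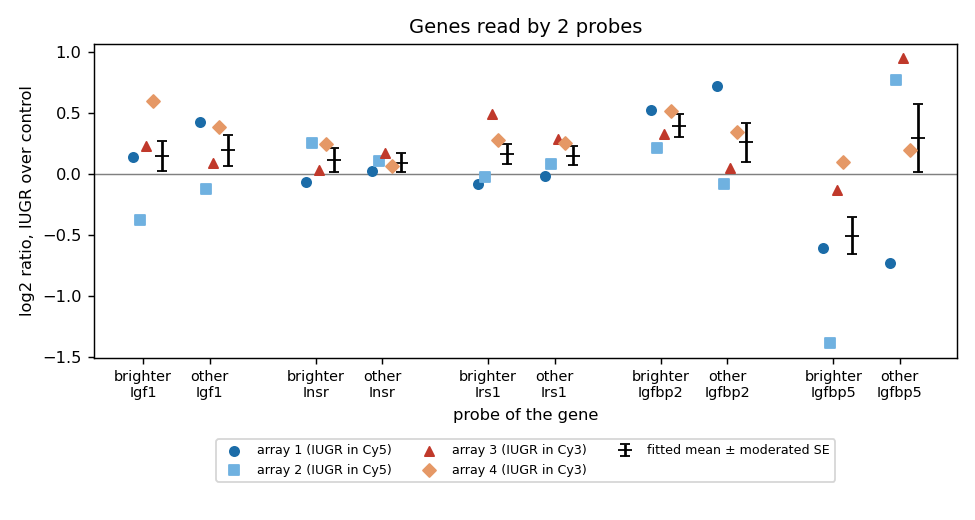
Log2 ratio of IUGR over control for the 5 genes read by 2 probes, with the ratio on each array as points and the fitted mean with its moderated SE in black (n = 4 arrays). The 2 probes of Igf1, Insr, Irs1 and Igfbp2 had means of the same sign, and those of Igfbp5 had means of -0.50 and 0.30.

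Igfbp3 and the brighter Igfbp5 probe had their lowest ratios on array 2, while the second Igfbp5 probe had its lowest on array 1. The fibroblast and stellate list had 10 of 10 markers tested, with array means of -0.20, -0.54, 0.19 and 0.31 and 5 members above and 5 below 0 on average. Its summed normalized intensity ranged from 87727 to 188601 in the IUGR samples and from 126763 to 199511 in the control samples, and no marker was at background. The endothelial list had array means of -0.43, 0.06, 0.52 and 0.50 over 8 markers, with 7 above and 1 below 0 on average, and sums from 74401 to 100699 in IUGR and from 57130 to 105781 in control. The means of these lists were higher on arrays 3 and 4 than on array 1. So were the ratios of Igf1, Igf2, Igf1r, Igf2r, Insr, Irs1 and the brighter Igfbp5 probe, but not those of Irs2, Igfbp2 and Igfbp3. The red blood cell list was also higher on arrays 3 and 4, at -0.81, 0.10, 1.86 and 1.32, with 4 of 4 markers above 0. Its sums ran from 53313 to 166637 in IUGR and from 45873 to 71845 in control. IUGR was in Cy5 on array 1 and in Cy3 on arrays 3 and 4. In the fit 10 of 10 fibroblast and stellate and 8 of 8 endothelial markers were brighter in Cy3. So were 4 of 4 red blood cell markers, and 48.7% of all genes. Whether dye or cells lay behind these array differences was not tested. Among the other lists 8 of 8 acinar markers averaged above 0, with array means of 0.44, 0.09, 1.86 and -0.14 and sums from 511775 to 1223240 in IUGR and from 380244 to 768378 in control. All 6 T and B lymphocyte markers averaged below 0, with array means of 0.01, -0.34, -1.43 and -0.90 and sums from 815 to 1378 in IUGR and from 809 to 4123 in control. Of the duct markers 5 of 6 averaged below 0, with array means of -0.12, -0.65, -0.44 and -0.32 and sums from 4753 to 6711 in IUGR and from 4916 to 8534 in control. The part of these cells in the ratios of the 10 genes was not tested.

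The spread between arrays differed among the 10 genes, from an SD of 0.15 for Igfbp2 to 0.66 for the brighter Igfbp5 probe. The median SD of the 4 ratios was 0.31 among them, beside 0.22 over all genes tested. Their array means were -0.08, -0.36, 0.10 and 0.35 on arrays 1 to 4, against array means between 0.00 and 0.04 over all genes. The fitted dye difference, Cy5 over Cy3, was below 0 in 9 of the 10, all but Irs2, and in 9823 of all genes (48.7%). Only its sign was counted, and it was near 0 for Insr (-0.02) and Igfbp2 (-0.03). Igf2, Igf1r and Irs1, or 3 of 10, had opposite signs in the 2 dye orientations, as did 3252 of all genes (16.1%). The fit takes out a dye difference shared by all arrays, but with 2 arrays in each orientation it rests on few values.

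Other genes of the pathway were read from 7 lists, which were chosen with earlier results of these data known. Of 78 listed genes 69 were tested, and 0 passed the test at an adjusted p under 0.05. Their ratios were above 0 in 41, or 59.4% beside 52.9% of all genes, and below 0 in 28, with a median of 0.10, beside 0.01 over all genes tested. By the looser rule, an unadjusted p under 0.05, 6 of them were higher (8.70%, beside 7.21% of all genes) and 1 was lower (1.45%, beside 6.55%). The smallest adjusted p was 0.342 again, so the values below are descriptions.

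The list of other IGF binding proteins and related secreted proteins had 5 of 8 members above 0, with a median of 0.07. Esm1, a proteoglycan of endothelial cells, averaged 0.54 ± 0.21, with -0.27 on array 1. Igfbp4, an inhibitor of IGF action, averaged 0.18 ± 0.09, with -0.19 and -0.03 on arrays 1 and 2. Of the proteases and their regulators 1 of 5 was above 0, with a median of -0.09. Timp1, an inhibitor of metalloproteinases, averaged -0.32 ± 0.12 with all 4 ratios below 0, as in 1961 of all genes (9.72%), and Pappa, the protease that cuts IGFBP4, 0.16 ± 0.08 with all 4 above 0.

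Of the IGF2 mRNA binding proteins and imprinted genes 3 of 6 were above 0, with a median of 0.14. H19, the noncoding RNA gene next to Igf2 that is expressed from the maternal allele, had ratios of 0.38, 0.21, 0.28 and 1.41 and a mean of 0.57 ± 0.20 (unadjusted p = 0.0363). Dlk1, an imprinted fetal growth regulator, had 0.38, 0.35, 0.21 and 0.60 and a mean of 0.39 ± 0.10 (unadjusted p = 0.0116). Both H19 and Dlk1 were thus above 0 on all 4 arrays, as 2213 of all genes (11%) were, whereas Igf2 itself was below 0 on arrays 1 and 2.

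Other receptors and adaptors were above 0 in 10 of 17, with a median of 0.10. Insrr, the orphan receptor related to the insulin receptor, averaged 0.58 ± 0.18, with -0.03 on array 1 and 0.47 to 1.17 on the other arrays. Grb14, an inhibitor of the insulin receptor kinase, averaged -0.34 ± 0.13 and was below 0 on all 4 arrays. Of the PI3K, AKT and target genes 16 of 23 were above 0, with a median of 0.11. Pik3r2, a regulatory subunit of PI3K, averaged 0.39 ± 0.13. The kinase gene Akt1 averaged 0.61 ± 0.23, with -0.17 on array 1.

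The growth hormone axis, which controls Igf1 in liver, was above 0 in 3 of 5 genes, with a median of 0.35. The receptor gene Ghr had -0.27, 1.22, 1.58 and 0.52, with a mean of 0.76 ± 0.30, and the kinase gene Jak2 averaged -0.27 ± 0.11. Genes of cleavage and degradation were above 0 in 3 of 5, with a median of 0.19. The protease gene Bace2 averaged 0.34 ± 0.14. The proprotein convertase gene Furin averaged 0.19 ± 0.09, with -0.08 on array 1.

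**Figure D4:**
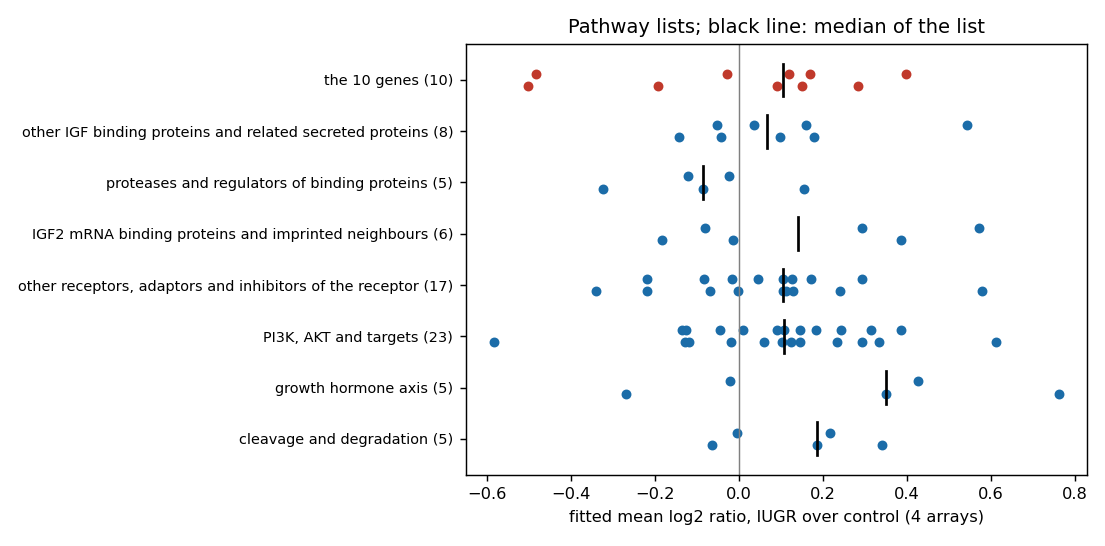
Fitted mean log2 ratio of IUGR over control for the 10 genes (red, top) and for the tested members of 7 pathway lists (blue), with the number of genes in brackets and the median of each row as a black line. The rows overlap widely around 0, with medians between -0.09 and 0.35.

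The array pattern of Igfbp2, the gene of the 10 with the smallest p, was set against those of 15123 other named genes by the Euclidean distance of the 4 log2 ratios. Among the 5 nearest were Asgr2 at 0.15, Upk3bl1 at 0.16, Adgre1 at 0.21 and Fam65c at 0.21. The means of these 4 genes were between 0.36 and 0.41, each with an adjusted p of 0.342. Adgre1 is a macrophage marker. The macrophage list had array means of 0.29, 0.37, 0.12 and 0.13 over 8 markers, 6 above and 2 below 0 on average, with 7 of 8 well above background in all samples. Its summed intensity ranged from 22020 to 42048 in IUGR and from 22478 to 39520 in control, and its part in the Igfbp2 ratios was not tested.

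**Figure D5:**
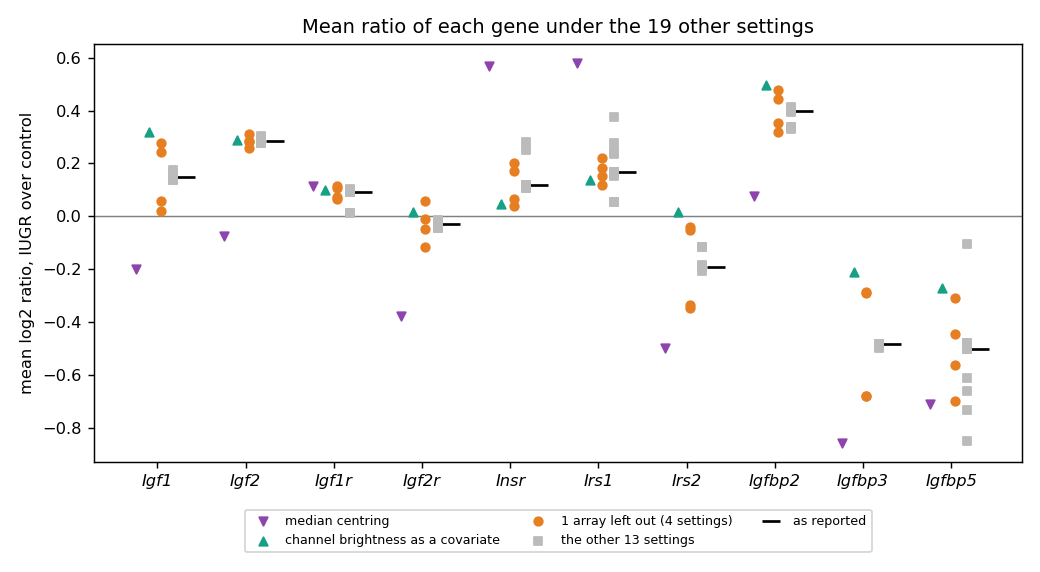
Fitted mean log2 ratio of IUGR over control for each of the 10 genes as reported (black) and under 19 other settings. The settings were median centring, channel brightness as a covariate, 1 array left out (4 settings) and 13 further settings. Igfbp2, Igf1r, Insr and Irs1 stayed above 0 and Igfbp3 and the brighter Igfbp5 probe, or the average of both Igfbp5 probes, below 0 in each setting run, while Igf1 and Igf2 were below 0 with median centring.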

How the data were processed

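Amplified, dye-labelled cDNA was hybridised to 4 two-colour arrays of 1 slide. Per the file headers, the authors extracted the scanner values with Agilent Feature Extraction 10.10.1.1 (protocol GE2_1010_Sep10, design 28282). The deposited files hold mean signals, local backgrounds and processed signals as intensity. The value table the authors deposited gives 1 log2 ratio for every spot and, set against the scanner files by spot row, was Cy5 over Cy3 (r from 0.976 to 0.995 with loess ratios without background subtraction; medians from -0.029 to 0.008). Its normalization settings are not given in the sources used here, beyond the name limma in the submitters' processing notes.

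Here, limma 3.58.1 in R 4.3.3 corrected background by normexp with offset 50 and normalized each array by loess, with control spots at weight 0. Between 44 and 222 spots per array with an outlying local background were given their channel's median background on that array. Outlier spots were left out, spots were averaged by probe and ratios were turned to IUGR over control. A probe was tested if measured on all 4 arrays and well above background in at least 2 IUGR or 2 control samples, and the brightest such probe stood for a gene. All 15 probes of the 10 genes passed. The model held a dye term, with 2 residual and 2.82 prior degrees of freedom. Levels per sample are loess values after Aquantile scaling between arrays. By accession, 59.3% of probes took their symbol from the RefSeq table of assembly GRCr8, the others from the files. The small number of arrays limits the precision.

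The 10 genes, the pathway and marker lists, the tests and the alternatives were chosen with earlier results of these data known. Besides the 10 genes, the 2 top genes by p of each pathway list and the 5 nearest patterns to the member with the smallest p are named, except 1 of these 5, which is not reported here. The fit was tested on simulated data. Deviations of same-numbered IUGR and control samples correlated at r from -0.29 to 0.08. Same-numbered samples always lay on different arrays and in opposite dyes, so these values cannot tell whether the numbers pair samples.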

Additional observations from a re-analysis of the deposited data

Results flagged for a closer look

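Levels of 3 genes had 1 IUGR sample far from the other 3; the gap to the nearest sample took up 0.838 to 0.845 of the group's range, above Dixon's 95% limit. In IUGR replicate 1, on array 2, Igf1r was at 7.74 normalized log2 intensity and Igf2r at 12.33, both the lowest of the 4 IUGR samples. In IUGR replicate 2, on array 1, Igfbp2 was at 12.15, the highest of the 4; the control sample of that array, at 11.63, was also the highest of its group. Chance flags about 1 in 20 such groups, and 35 groups were examined.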

How the results depend on the processing

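Each result was recomputed under 19 alternatives. Values with 1 array left out keep the dye term, so the lone array of an orientation weighs as much as both arrays of the other. The 10 genes gave 189 values in all, since Insr was not tested under the strict filter. Of these, 184 kept their sign and 5 reversed: with median centring Igf1 (-0.20) and Igf2 (-0.0751), with channel brightness as a covariate Igf2r (0.0173) and Irs2 (0.0178), and without array 3 Igf2r (0.0588; -0.117 to 0.0588 over the arrays left out). None of the 189 passed the adjusted threshold in limma, with the smallest adjusted p at 0.0778 (Igfbp5 without array 1). The cause of the reversals was not tested. The count of genes called was 24 (6 higher, 18 lower) with median centring, 1 (lower) with channel brightness as a covariate and 0 otherwise, including 0 to 0 when 1 array was left out; at an unadjusted p under 0.05 it ran from 464 without array 3 to 6130 without array 1, against 2778 as reported. The median of the 10 genes was between -0.14 (median centring) and 0.13. With the replicate number as a replicate block, on separate-channel values, 0 genes were called in limma (2220 at an unadjusted p under 0.05). The smallest adjusted p among the 10 genes was then 0.336. For 0 of 4 numbers did the IUGR sample correlate best with the control sample of that number. This cannot settle a pairing, since such samples lay on different arrays in opposite dyes. By the probes that stood for them, Insr and Irs1 were well above background in 3 of 4 IUGR samples. The other Irs1 probe was well above background in 4 of 4 and the other Insr probe in 2 of 4. Under the strict filter the Irs1 value (0.153) was that of its other probe.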
